A study of Mus musculus with 46 samples.

Results

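Livers of 18-month-old mice were compared between males castrated as young adults (CasM) and sham-operated females (ShamF), across every autosomal gene with a mean level of at least 1 in either group. Of the 18531 genes in the expression table, 11279 reached that level and 10909 of them were autosomal. Among the remaining expressed genes, 323 were X-linked, 4 were Y-linked and 43 had no chromosome in the RefSeq gene table. CasM comprised 5 liver libraries and ShamF 3. Both groups were wild-type C57BL6 mice operated on at 8 weeks of age and killed at 18 months. CasM animals had been castrated, and ShamF animals had been through a sham operation that left the gonads in place. Another group of 3 libraries from sham-operated males of the same age (ShamM) is given beside them. The series holds 46 bulk libraries of liver and kidney at this age and at 12 weeks, made from poly(A)-enriched RNA and read as paired ends of 150 bp. CasM and ShamF differ at once in chromosomal sex, in gonads and in the operation, and these cannot be told apart here. The labels do not say whether libraries came from separate animals, so each p-value measures only the spread between libraries, which may be technical.

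The mouse liver is one of the most sexually dimorphic organs. Male and female patterns of growth hormone release act on hepatocytes through STAT5 and set many genes for drug, steroid and pheromone-carrier proteins to a male or a female level. Testicular androgen shapes the male pattern of growth hormone release, and oestrogens also act on liver lipid metabolism through oestrogen receptor alpha. PPAR alpha, a nuclear receptor for fatty acids, switches on fatty acid oxidation, and stellate cells, which store vitamin A, become the main source of collagen when the liver scars.

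The deposited expression values are group means, so no value per library and no overlap between libraries can be shown, and the read depth behind the means is unknown. Their unit is not named, so levels are compared here only between groups for the same gene. The lowest value, 0.01, stands for a gene listed at 0. Sums of all liver means were 766837 in CasM, 707178 in ShamF and 767843 in ShamM. Differences are given as CasM minus ShamF on the scale of log2(mean + 1), which understates changes of genes with low values. A gene is called where the authors' deposited table of DESeq2 results has an adjusted p under 0.05 for this pair. In that table the log2 fold runs as ShamF over CasM, as all 174 called genes had a fold opposite in sign to their group means. Every log2 fold below has been turned round to CasM over ShamF. Its standard error (SE) is implied by the deposited fold and p, as the fold divided by the normal quantile of the two-sided p. The median implied SE was 0.235 over the 7205 genes with a mean of at least 5, with quartiles of 0.190 and 0.292.

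The labels fitted the tissue and the sexes. All 10 hepatocyte markers were expressed, Alb at 48362 in CasM, 49901 in ShamF and 45204 in ShamM, and none of the 10 was called. The Y-linked gene Eif2s3y had a mean of 38.8 in CasM, 0.0533 in ShamF and 37.3 in ShamM, and Ddx3y was at 14.4 in CasM, listed at 0 in ShamF and at 14.2 in ShamM. Kidney and exocrine pancreas markers were nearly absent, with 1 gene of each list reaching a mean of 1.

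Few genes were called between the castrated male liver and the female liver. With 5 CasM and 3 ShamF libraries smaller differences may go uncalled, so few calls do not show that the livers are alike. The authors' deposited table called 174 of 10909 genes (1.60%), of which 81 were higher in CasM (0.743%) and 93 were lower (0.853%). At an unadjusted p under 0.05 it held 630 genes higher (5.78%) and 713 lower (6.54%). The median difference over all members was -0.028 on the log2(mean + 1) scale, and 45.8% of members had a higher mean in CasM and 54.2% a lower one. By the log2 fold in the authors' deposited table the balance turned, with a median of 0.03 and 53.9% of members above 0. A mean of 1 was reached in CasM only by 144 members and in ShamF only by 437. Of the 174 called genes, 37 were among these, so their direction followed from the expression rule. Described by size alone, 78 genes were at least 2-fold higher in CasM on mean + 1 (0.715%) and 161 at least 2-fold lower (1.48%). These counts depend on the pseudocount, with 131 higher and 407 lower at a pseudocount of 0.1, and 28 higher and 57 lower at 5. The smallest absolute log2 fold among called genes was 0.52, and 121 of the 174 reached 1. Genes with a larger mean of 100 or more were called in 22 of 979 cases (2.25%), and those between 1 and 5 in 64 of 3704 (1.73%).

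**Figure D1:**
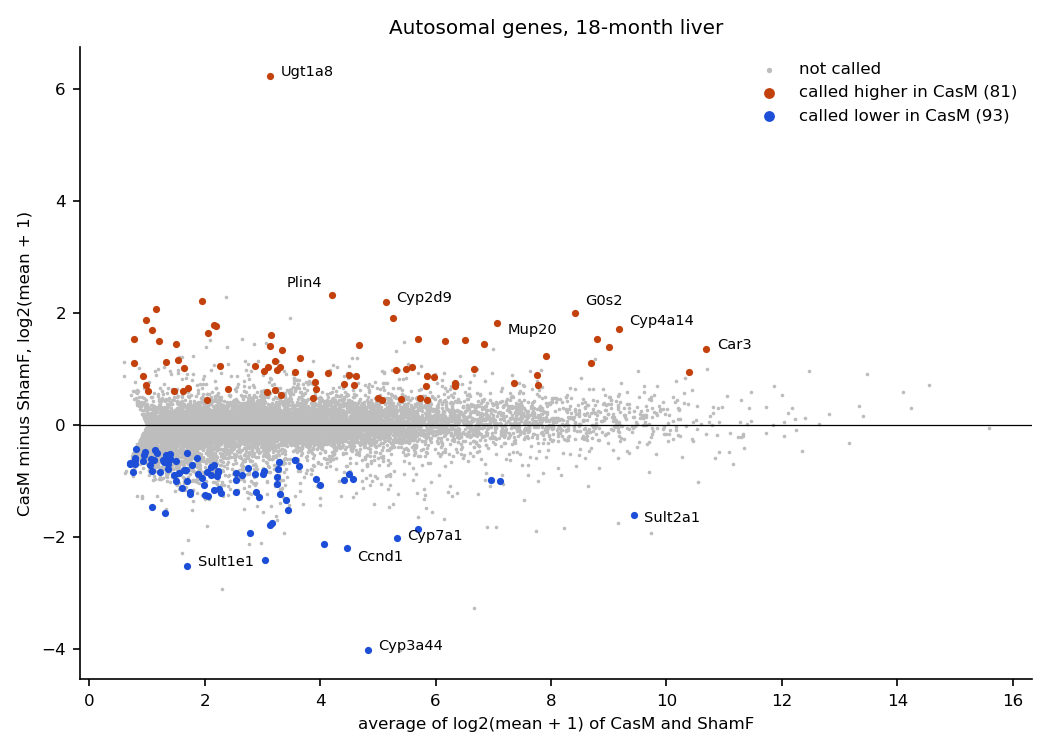
Difference between CasM and ShamF in log2(mean + 1) against the average level of the same 2 means, for 10909 autosomal genes of 18-month liver. Grey points were not called, red points were called higher in CasM (81) and blue points lower (93) by the authors' adjusted p. Ugt1a8 stands alone at the top and Cyp3a44 lies at the bottom, and the red points reach further to the right, towards high levels, than the blue ones.

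At the edge of the expression rule, Pfkfb4 was just inside with means of 0.668 in CasM and 1 in ShamF, and Chst12 was just outside at 0.668 in CasM and 0.997 in ShamF. At the edge of the call, Timp3 (adjusted p = 0.0484) and Dus1l (adjusted p = 0.0485) were just inside in the authors' deposited table, while Esr1, Emp1 and Cdkn2c (adjusted p = 0.0512 each) were just outside.

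The intact male livers lay on the CasM side for most called genes. Of the 93 genes lower in CasM, 90 also had a lower mean in ShamM than in ShamF, and 86 had a ShamM mean within 2-fold of CasM on mean + 1. Of the 81 genes higher in CasM, 71 had a higher mean in ShamM than in ShamF, 57 had a ShamM mean within 2-fold of CasM, 8 were at least 2-fold higher in ShamM than in CasM, and 16 were at least 2-fold lower. These counts share CasM and ShamF with the calls and are a description only.

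**Figure D2:**
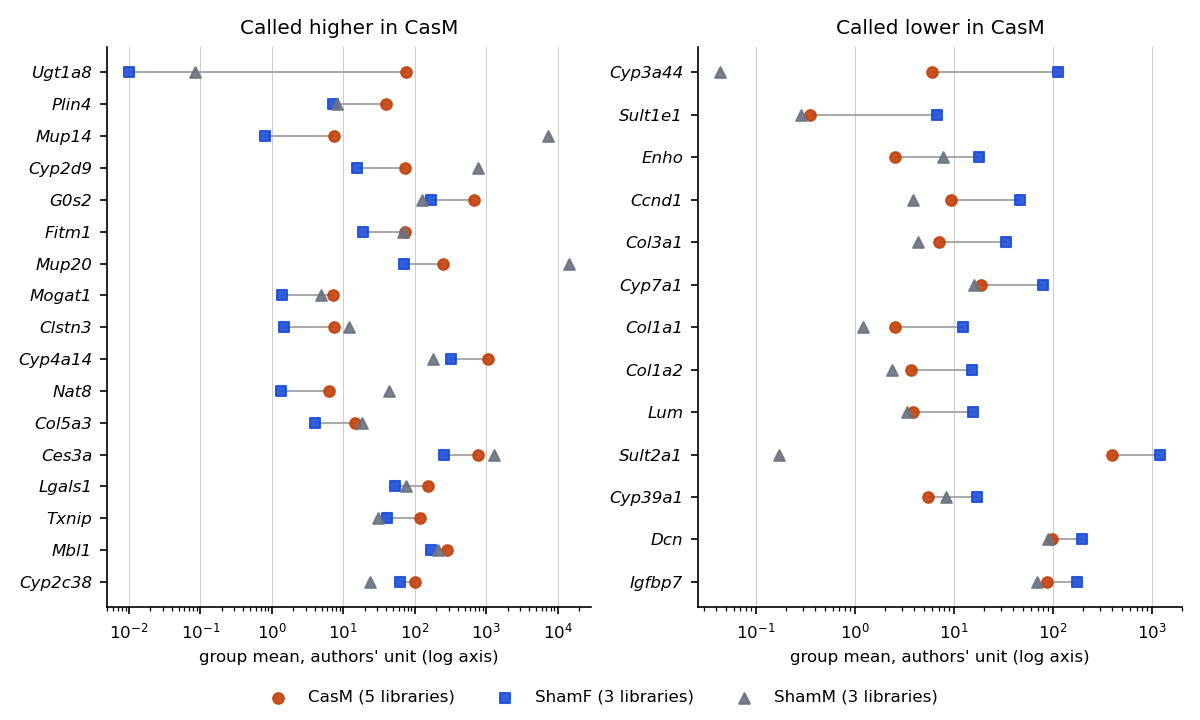
Group means (log axis, authors' unit) of the named genes in CasM (circles), ShamF (squares) and ShamM (triangles), with a line joining CasM and ShamF. The left panel shows genes called higher in CasM and the right panel genes called lower. Triangles for Mup14, Mup20, Cyp2d9 and Nat8 lie far to the right of CasM, and those for Cyp3a44 and Sult2a1 far to the left.

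Promoter windows of some genes with large differences are shown as examples. Ugt1a8, Mup14, Cyp2d9 and G0s2 rose further than Fitm1 and also had a window, which is not printed. All windows run from 250 bases before to 50 bases after the annotated start, 5′ to 3′ on the gene's strand, from RefSeq on GRCm38.p6. Cyp3a44 (chr5:145805825-145806124, minus strand) and Sult1e1 (chr5:87591562-87591861, minus strand) were called lower in CasM, and Plin4 (chr17:56109733-56110032, minus strand) and Fitm1 (chr14:55575424-55575723, plus strand) were called higher. Capitals mark the nuclear receptor motif TGACCT read on either strand.
Cyp3a44: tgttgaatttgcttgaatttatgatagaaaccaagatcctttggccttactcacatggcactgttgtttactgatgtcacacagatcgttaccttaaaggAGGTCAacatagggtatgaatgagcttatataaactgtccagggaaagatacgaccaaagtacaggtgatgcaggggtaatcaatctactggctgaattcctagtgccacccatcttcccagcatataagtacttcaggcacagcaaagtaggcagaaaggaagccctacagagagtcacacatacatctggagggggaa
Sult1e1: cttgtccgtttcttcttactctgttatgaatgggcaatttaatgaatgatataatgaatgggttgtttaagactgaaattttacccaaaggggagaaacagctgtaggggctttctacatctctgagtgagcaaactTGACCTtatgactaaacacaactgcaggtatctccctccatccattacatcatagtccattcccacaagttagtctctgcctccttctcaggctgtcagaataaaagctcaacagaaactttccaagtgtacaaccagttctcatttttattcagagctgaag
Plin4: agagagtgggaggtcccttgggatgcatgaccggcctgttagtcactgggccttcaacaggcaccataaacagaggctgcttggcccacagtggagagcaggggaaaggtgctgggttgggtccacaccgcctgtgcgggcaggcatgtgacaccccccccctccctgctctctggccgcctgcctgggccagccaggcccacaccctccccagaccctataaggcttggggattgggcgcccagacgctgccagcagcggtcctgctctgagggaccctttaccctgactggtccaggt
Fitm1: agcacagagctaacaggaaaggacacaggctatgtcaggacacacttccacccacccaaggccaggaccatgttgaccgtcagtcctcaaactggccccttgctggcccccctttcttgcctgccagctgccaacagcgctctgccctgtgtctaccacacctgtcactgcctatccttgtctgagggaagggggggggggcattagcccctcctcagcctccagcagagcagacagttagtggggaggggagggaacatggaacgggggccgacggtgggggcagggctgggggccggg
Cyp3a44 and Sult1e1 each held 1 copy of this motif and the Plin4 and Fitm1 windows held none. The windows of Col3a1, Col1a2 and Igfbp7, also called lower, held none either, so the printed windows are no contrast of lower with higher genes. The motif TGACCT is counted next over all windows. It was present in 16.0% of all 27025 promoters of the table, in 12.9% of the 8803 windows matched for members, in 8 of the 61 windows matched for genes called higher in CasM (13.1%) and in 9 of the 62 matched for genes called lower (14.5%). A STAT5-type site, TTCNNNGAA, was present in 8.47% of all promoters, in 7.10% of members' windows, in 6 windows of genes called higher (9.84%) and in 2 of genes called lower (3.23%). The palindromic consensus oestrogen response element, which can overlap TGACCT, was in 0.0666% of all promoters and in none of the 8803 windows of members. All were searched on both strands, and a match describes letters in a window, not a bound site.

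Genes known for female-biased expression were lower in CasM in 38 of 55 cases by their means, with 5 called lower and 2 called higher. Over all members 54.2% had a lower mean, 0.853% were called lower and 0.743% higher. Of the 55, 1 reached a mean of 1 in ShamF only. This was Sult1e1, among the 5 called lower, so its direction followed from the expression rule. Cyp3a44, a cytochrome P450 of steroid and drug oxidation found mainly in female mouse liver, had a mean of 6.06 in CasM, 113 in ShamF and 0.0433 in ShamM. CasM thus lay between the sham groups for this gene, and its log2 fold was -4.20 (implied SE 0.94, adjusted p = 0.00273 in the authors' deposited table). Sult2a1, a sulfotransferase of bile acids and hydroxysteroids, had a mean of 394 in CasM, 1207 in ShamF and 0.170 in ShamM. Its log2 fold was -1.56 (implied SE 0.26, adjusted p = 1.83e-06, authors' deposited table), so CasM was well below ShamF while far above the intact males. Sult1e1, the oestrogen sulfotransferase, fell to 0.356 in CasM, against 6.74 in ShamF, and ShamM was at 0.287 (log2 fold -4.17, implied SE 0.65, adjusted p = 2.78e-07 in the authors' deposited table). Unlike the previous 2 genes, Sult1e1 in CasM was at the level of ShamM.

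The other female-biased genes varied widely. Cyp3a16 had means of 9.46 in CasM and 167 in ShamF (log2 fold -4.11, 95% interval from -6.50 to -1.72, adjusted p = 0.0612 in the authors' deposited table). A1bg, a plasma glycoprotein, was at 157 in CasM and 562 in ShamF (adjusted p = 0.645 there). Cyp2b9, another female-biased cytochrome P450, had nearly equal means of 205 in CasM and 211 in ShamF, with ShamM at 9.88, and its 95% interval of the log2 fold ran from -0.42 to 0.45 in the authors' deposited table. Sult3a1, a sulfotransferase, was at 70.8 in CasM, 36.5 in ShamF and 0.147 in ShamM and was not called. By their means 17 of the 55 were higher in CasM, and the 2 called higher were Cyp4a10 and Cyp4a14, described with fatty acid oxidation below. Over the list the median difference was -0.45, and summed means were 9194 in CasM, 14434 in ShamF and 1325 in ShamM. Cyp3a41a, Cyp3a41b and Cyp3a44, as well as the Sult2a genes, are near-identical copies whose reads the authors' counting may have split unevenly, so values of single copies are uncertain.

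Of 32 genes known for male-biased expression, 5 were called higher in CasM than in ShamF and none lower. Over all members 0.743% were called higher and 0.853% lower. Of the 5, Mup14 and Cyp4a12a reached a mean of 1 in CasM only, so their direction followed from the expression rule. Cyp2d9, a male-biased steroid hydroxylase, had a mean of 74.4 in CasM, 15.4 in ShamF and 782 in ShamM (log2 fold 2.38, implied SE 0.41, adjusted p = 1.21e-05 in the authors' deposited table). Mup20, also named darcin, a urinary protein by which females recognise male scent, was at 250 in CasM, 70.3 in ShamF and 14460 in ShamM (log2 fold 1.99, implied SE 0.50, adjusted p = 0.0125, authors' deposited table). Mup14, another major urinary protein, was at 7.35 in CasM, 0.803 in ShamF and 7252 in ShamM and was called higher. In each of these genes the CasM mean lay between the sham groups, above ShamF and below ShamM. Cyp4a12a, a fatty acid hydroxylase induced by androgen, was at 2.80 in CasM, 0.0367 in ShamF and 116 in ShamM, and Hsd3b2, a hydroxysteroid dehydrogenase, was at 12.4 in CasM, 5.79 in ShamF and 23.9 in ShamM. The summed means of the list were 5838 in CasM, 4503 in ShamF and 77379 in ShamM, and its median difference was 0.40. Mup copies share most of their sequence, and reads may be assigned to the wrong copy. Nat8, an N-acetyltransferase outside this list, had a mean of 6.40 in CasM, 1.36 in ShamF and 44.4 in ShamM and was called higher.

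None of 23 genes for hormone receptors and growth hormone signalling was called in either direction, and at an unadjusted p under 0.05 the authors' deposited table held 4 lower and none higher. Esr1, which encodes oestrogen receptor alpha, had means of 5.56 in CasM, 10.7 in ShamF and 3.37 in ShamM (log2 fold -0.92, implied SE 0.27, adjusted p = 0.0512 in the authors' deposited table). The growth hormone receptor gene Ghr was at 220 in CasM and 216 in ShamF, with a 95% interval of the log2 fold from -0.41 to 0.54 in the authors' deposited table. Stat5b, its signal transducer, was at 14.2 in CasM and 16.6 in ShamF (interval from -0.56 to 0.25 there). Among 32 transcription factors tied to sex-biased liver expression none was called either, 3 being higher and 2 lower at an unadjusted p under 0.05. Over all members 5.78% were higher and 6.54% lower at that limit, so no lean is read from these factors. Cux2, a repressor found in female liver, was at 6.92 in CasM, 9.79 in ShamF and 0.0467 in ShamM, and Bcl6, a repressor found mostly in male liver, at 7.55 in CasM, 4.35 in ShamF and 10.2 in ShamM. The CasM mean of Cux2 was nearer to ShamF than to ShamM, and that of Bcl6 lay between the sham groups.

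Genes of cholesterol synthesis mostly had lower means in CasM, while bile acid genes were divided. Of 24 cholesterol synthesis genes, 23 had a lower mean in CasM and the list median was -0.63, with 3 lower at an unadjusted p under 0.05. Idi1, the isopentenyl diphosphate isomerase, was at 98.6 in CasM, 206 in ShamF and 98.5 in ShamM, and Sqle, the squalene epoxidase, at 33.7 in CasM, 67.1 in ShamF and 44.3 in ShamM, neither called. Cyp7a1, the cholesterol 7-alpha-hydroxylase that starts classical bile acid synthesis, fell to 18.98 in CasM, against 79.2 in ShamF, with ShamM at 16.1 (log2 fold -2.002, implied SE 0.49, adjusted p = 0.00921, authors' deposited table). Cyp39a1, the oxysterol 7-alpha-hydroxylase, was at 5.42 in CasM, 17.3 in ShamF and 8.29 in ShamM and was called lower. These were the 2 called of 28 bile acid genes, of which 17 had a lower mean and 11 a higher mean in CasM. Over all members 54.2% had a lower mean, so no lean is read from the split of the bile acid genes. Of all members 0.853% were called lower and 6.54% were lower at an unadjusted p under 0.05. The list median was -0.12 and the summed level was 4696 in CasM and 4463 in ShamF, and Cyp27a1, Cyp8b1 and the export pump gene Abcb11 were not called.

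Genes of fatty acid oxidation leaned higher in CasM. Of 42 PPAR alpha targets and oxidation genes, 36 had a higher mean in CasM, 5 were called higher and none lower, and the median was 0.29. Over all members 45.8% had a higher mean and 0.743% were called higher. Cyp4a14, a fatty acid omega-hydroxylase, had a mean of 1048 in CasM, 318 in ShamF and 182 in ShamM (log2 fold 1.76, implied SE 0.29, adjusted p = 2.10e-06 in the authors' deposited table). Its neighbour Cyp4a10 was at 602 in CasM, 280 in ShamF and 142 in ShamM (log2 fold 1.16, implied SE 0.22, adjusted p = 0.000112, authors' deposited table). Both genes were higher in CasM than in either sham group, whatever its sex. Acot1, a thioesterase that frees fatty acids from acyl-CoA, was at 87.5 in CasM, 29.4 in ShamF and 33.6 in ShamM, and Acaa1b, a peroxisomal thiolase, at 1871 in CasM, 967 in ShamF and 1467 in ShamM. Cyp4a32 was the fifth called gene. At an unadjusted p under 0.05 the list held 16 higher and 1 lower in the authors' deposited table, against 5.78% and 6.54% of all members. Among the genes not called, Fgf21, a fasting hormone, was at 10.9 in CasM and 3.38 in ShamF (adjusted p = 0.0758 in the authors' deposited table), and Fabp1, the main liver fatty acid carrier, at 15672 in CasM and 8362 in ShamF (adjusted p = 0.139 there). Ppara itself was at 50.04 in CasM and 50.19 in ShamF, with a 95% interval of the log2 fold from -0.39 to 0.47 in the authors' deposited table. Members of the Cyp4a and Acot clusters are close copies, and reads may be shared between them.

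Some genes of lipid storage were among the largest increases, while the list as a whole was divided. Plin4, a lipid droplet coat protein, had a mean of 40.3 in CasM, 7.28 in ShamF and 8.30 in ShamM (log2 fold 2.49, implied SE 0.54, adjusted p = 0.00157 in the authors' deposited table). G0s2, an inhibitor of the triglyceride lipase ATGL, was at 681 in CasM, 170 in ShamF and 128 in ShamM (log2 fold 1.99, implied SE 0.57, adjusted p = 0.0464, authors' deposited table). Both genes were high in CasM alone among the 3 group means. Fitm1, which aids droplet formation, was at 73.5 in CasM, 18.8 in ShamF and 69.1 in ShamM (log2 fold 2.11, implied SE 0.45, adjusted p = 0.00132 in the authors' deposited table), so here ShamM was level with CasM. Fabp2, an intestinal-type fatty acid carrier, was at 189 in CasM, 68.3 in ShamF and 142 in ShamM and was also called. These were the 4 called of 37 genes for droplets, uptake and lipoproteins, whose median was 0.16. Of the 37, 24 had a higher mean and 13 a lower one, against 45.8% and 54.2% of all members. Differences ran from -2.13 to 2.32, and the largest decrease was not called. At an unadjusted p under 0.05, 6 were higher and 1 lower in the authors' deposited table. Over all members 5.78% were higher and 6.54% lower at that limit, and 0.743% were called higher and 0.853% lower. Cidec, which fuses droplets, was at 10.3 in CasM, 1.33 in ShamF and 21.3 in ShamM and was not called (adjusted p = 0.103 in the authors' deposited table). Mogat1, an acyltransferase of triglyceride synthesis, was at 7.30 in CasM, 1.39 in ShamF and 4.93 in ShamM and was called higher, while Scd2, a fatty acid desaturase, was at 1.62 in CasM, 5.20 in ShamF and 2.09 in ShamM and was called lower. They were the 2 called of 27 genes for fatty acid and triglyceride synthesis, among which 19 had a lower mean in CasM.

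**Figure D3:**
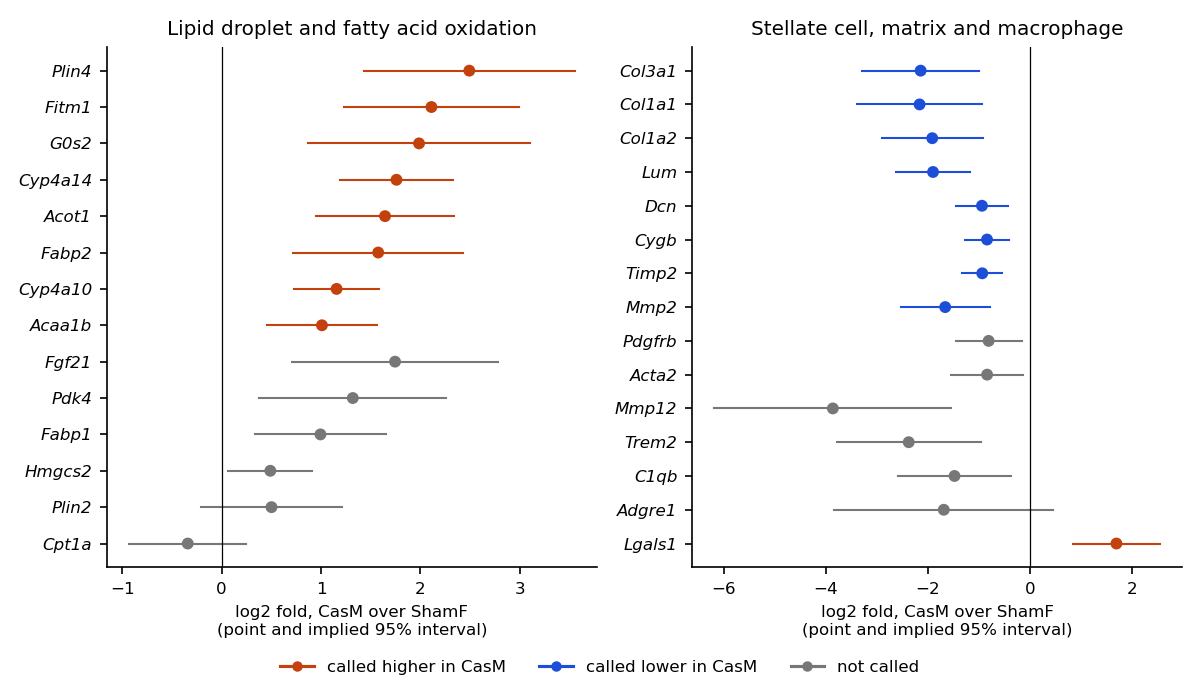
Log2 fold of CasM over ShamF with its implied 95% interval for selected genes of lipid storage and oxidation (left) and of stellate cells, matrix and macrophages (right), chosen after their values were seen. Red and blue mark genes called higher and lower, and grey those not called. The intervals of Plin2, Cpt1a and Adgre1 cross 0, and Mmp12 has the widest interval of those plotted.

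Several collagens and stellate cell genes were called lower in CasM, and others were not called. All 16 stellate cell and fibroblast markers had a lower mean in CasM, 6 were called lower and none higher, and the median was -0.79. Of the 16, 1 reached a mean of 1 in ShamF only, so its direction followed from the expression rule. Over all members 54.2% had a lower mean and 0.853% were called lower. Col3a1, a fibrillar collagen, had a mean of 7.06 in CasM, 33.9 in ShamF and 4.38 in ShamM (log2 fold -2.14, implied SE 0.58, adjusted p = 0.0315 in the authors' deposited table). Col1a1 was at 2.52 in CasM, 12.3 in ShamF and 1.21 in ShamM, and Col1a2 at 3.73 in CasM, 15.2 in ShamF and 2.40 in ShamM. Lum, a keratan sulfate proteoglycan that binds collagen fibrils, fell to 3.91 in CasM, against 15.5 in ShamF, with ShamM at 3.34 (log2 fold -1.90, implied SE 0.37, adjusted p = 0.000253, authors' deposited table). Female livers thus had the highest mean of the 3 groups for each of these 4 genes, and both male groups lay close together. Dcn, decorin, was at 97.7 in CasM, 195 in ShamF and 88.9 in ShamM, and Cygb, a globin of quiescent stellate cells, at 6.36 in CasM, 11.7 in ShamF and 5.06 in ShamM. The summed level of the 16 markers was 235 in CasM, 471 in ShamF and 202 in ShamM, with no marker listed at 0. In bulk tissue, fewer cells of a type and less RNA per cell cannot be told apart.

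Over 31 collagen and matrix genes, 8 were called lower and 1 higher, 29 had a lower mean in CasM, and the median was -0.88, but 5 of the 31 reached a mean of 1 in ShamF only and 4 further list genes were under 1 in both groups. The collagen genes Col4a1, at 4.86 in CasM and 9.80 in ShamF, and Col5a1, at 1.43 in CasM and 2.96 in ShamF, were among those not called. The 8 were Col1a1, Col1a2, Col3a1, Col6a2, Lum, Dcn, the protease Mmp2 and its inhibitor Timp2. Col1a1, Col3a1, Lum and Dcn are also among the 6 called stellate cell genes, so the tallies of these lists overlap. The recruited macrophage list, given below, shares its largest decrease, of -2.93, with the matrix list. Over all members 54.2% had a lower mean, 0.853% were called lower and 6.54% were lower at an unadjusted p under 0.05. Over the 31 matrix genes the authors' deposited table held 22 lower and 1 higher at an unadjusted p under 0.05. The exception was Lgals1, galectin-1, with a mean of 154 in CasM, 52.8 in ShamF and 76.0 in ShamM (log2 fold 1.70, implied SE 0.43, adjusted p = 0.0153 in the authors' deposited table). Col5a3, a minor fibrillar collagen chain outside the list, also went the other way, at 14.5 in CasM, 4.08 in ShamF and 18.1 in ShamM, and was called higher. Igfbp7, a secreted protein of vessels and stroma, was at 87.5 in CasM, 174 in ShamF and 69.2 in ShamM and was called lower. Called genes for further matrix proteins, picked out after their values were seen, included Postn, Dpt, Fbln5, Sparcl1, Efemp1, Adamts2 and Ltbp1, each lower in CasM. Lamb3, a laminin chain, was called higher at 3.47 in CasM and 1.197 in ShamF. Adamts2 and Ltbp1 reached a mean of 1 in ShamF only, so their direction followed from the expression rule.

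Markers of macrophages and endothelium also had lower means in CasM, and their part in the matrix result was not tested. All 17 Kupffer cell and macrophage markers had a lower mean in CasM, with a median of -1.32, the lowest of the lists with at least 6 members, but none was called. Of the 17, 1 reached a mean of 1 in ShamF only, so its direction followed from the expression rule. The summed level of the list was 335 in CasM, 901 in ShamF and 233 in ShamM, and no marker was listed at 0. C1qb, a complement subunit made by macrophages, was at 35.1 in CasM, 104 in ShamF and 24.2 in ShamM (log2 fold -1.48, 95% interval from -2.58 to -0.38, adjusted p = 0.243 in the authors' deposited table). All 15 markers of lipid-associated and recruited macrophages were likewise lower in mean, with a median of -1.001 and none called, though 3 of them reached a mean of 1 in ShamF only. Mmp12, macrophage elastase, was at 0.790 in CasM and 12.6 in ShamF, and Trem2, a lipid-sensing receptor, at 1.2 in CasM and 6.66 in ShamF, with an adjusted p of 0.0845 for Mmp12 and 0.0735 for Trem2 in the authors' deposited table. At an unadjusted p under 0.05 that table held 9 of the Kupffer cell markers and 10 of the recruited macrophage markers lower and none higher. Over all members 6.54% were lower at that limit, 54.2% had a lower mean and 0.853% were called lower. All 17 sinusoidal endothelium markers were lower in mean with a median of -0.72, and 1 was called, the hyaluronan receptor gene Lyve1, at 2.20 in CasM, 6.42 in ShamF and 1.90 in ShamM. Here too, 1 of the 17 reached a mean of 1 in ShamF only. The summed level of the endothelium markers was 123 in CasM, 222 in ShamF and 105 in ShamM. The 10 hepatocyte markers had a median of -0.19 and a summed level of 120616 in CasM, 111281 in ShamF and 103740 in ShamM. The 9 cholangiocyte markers had a median of -0.07, and none was called.

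**Figure D4:**
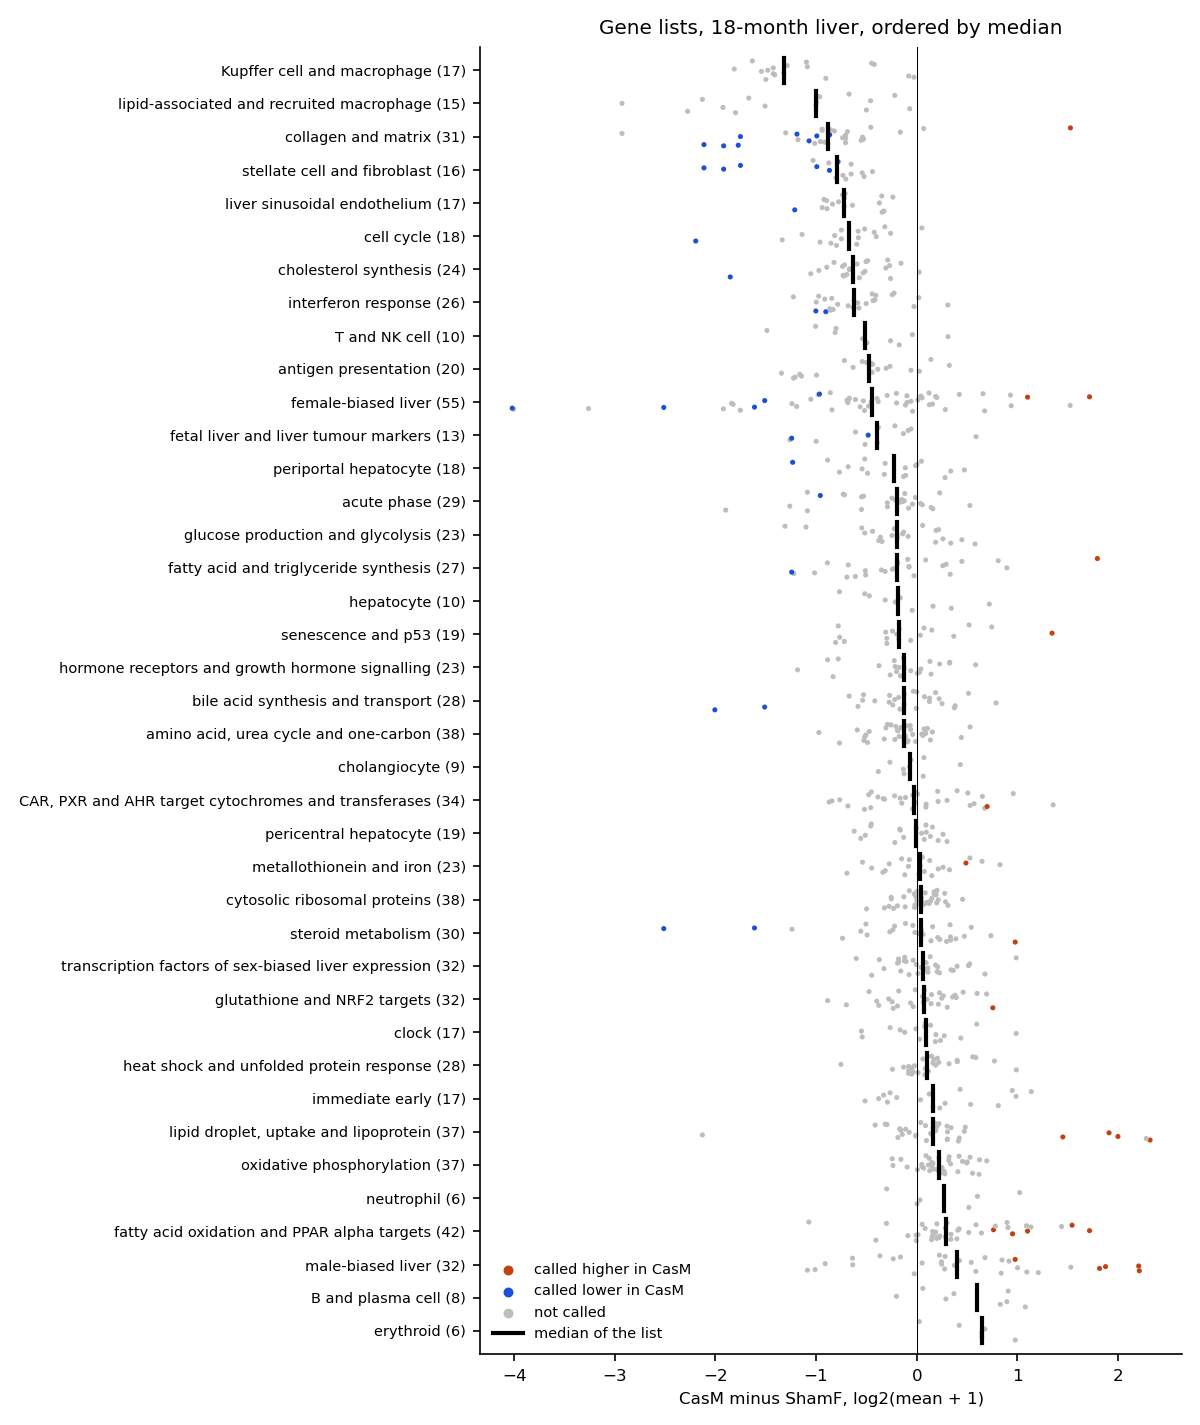
Difference between CasM and ShamF in log2(mean + 1) for each member of the gene lists with at least 6 members, ordered by the list median (black bar), with the number of members in brackets. Red and blue points were called higher and lower in CasM. Macrophage, matrix, stellate cell and endothelium lists lie at the top with medians from -1.32 to -0.72, and fatty acid oxidation and male-biased genes lie near the bottom with medians of 0.29 and 0.40.

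Cyclin D1 and a pair of interferon response genes were called lower in CasM. Ccnd1, the cyclin D1 gene, whose product carries cells into the division cycle, had a mean of 9.27 in CasM, 46.1 in ShamF and 3.87 in ShamM (log2 fold -2.23, implied SE 0.43, adjusted p = 0.000197 in the authors' deposited table). It was the single called gene of 18 cell cycle genes that passed the expression rule. As 8 of the 18 reached a mean of 1 in ShamF only and 12 further list genes were under 1 in both groups, no tally of directions is drawn from this list. Top2a, at 0.260 in CasM and 1.19 in ShamF, and Pcna, at 36.6 in CasM and 45.8 in ShamF, were not called. Among 26 interferon response genes 24 were lower in mean, against 54.2% of all members, and the median was -0.63. Over all members 0.853% were called lower. Of the 26, 1 reached a mean of 1 in ShamF only. The 2 called lower were Ifit1, at 2.39 in CasM and 5.34 in ShamF, and Ifit2, at 1.002 in CasM and 3.01 in ShamF. Of 20 antigen presentation genes none was called, and the invariant chain gene Cd74 was at 115 in CasM, 293 in ShamF and 42.5 in ShamM (adjusted p = 0.675 in the authors' deposited table).

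Several of the largest differences fell outside these groups. Ugt1a8, a glucuronosyltransferase, had a mean of 74.96 in CasM, was listed at 0 in ShamF and was at 0.0833 in ShamM, with an adjusted p of 3.58e-11 in the authors' deposited table. Ugt1a8 passed the expression rule through CasM only, so its direction followed from that rule. No fold is given against a group listed at 0, and Ugt1a genes share their last exons, so the assignment of reads to this isoform is uncertain. Enho, which encodes the secreted peptide adropin, fell to 2.57 in CasM, against 18.0 in ShamF, with ShamM at 7.78 (log2 fold -2.83, implied SE 0.56, adjusted p = 0.000347 in the authors' deposited table). Ces3a, a carboxylesterase of lipid hydrolysis, was at 760 in CasM, 260 in ShamF and 1292 in ShamM (log2 fold 1.63, implied SE 0.32, adjusted p = 0.000316, authors' deposited table). Txnip, a thioredoxin inhibitor that responds to glucose, was at 120 in CasM, 41.5 in ShamF and 30.4 in ShamM, and Clstn3, a calsyntenin, at 7.49 in CasM, 1.497 in ShamF and 11.9 in ShamM, both called higher. By contrast, Mbl1 and Cyp2c38 had the smallest increases called at a mean of at least 100, with differences of 0.72 and 0.70. Mbl1, a mannose-binding lectin of complement, was at 281 in CasM, 171 in ShamF and 215 in ShamM. Cyp2c38, a cytochrome P450, was at 102 in CasM, 62.1 in ShamF and 23.5 in ShamM. It was the single called gene of 34 CAR, PXR and AHR targets, beside 1.60% called over all members. Among called genes, 128 belonged to none of the lists.

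In 12-week livers, other animals whose means are in FPKM, the genes called at 18 months were set beside their 18-month differences. Since they were chosen by their 18-month values, their 18-month medians are large by that choice and a smaller 12-week median is no measure of a change with age. The 72 genes called higher at 18 months with a 12-week value had a median difference of 0.15 at 12 weeks, against 1.05 at 18 months, and the 92 called lower had medians of -0.02 and -0.87. By size alone, 30 of the 10436 members with a 12-week value were at least 2-fold higher in CasM at 12 weeks (0.287%) and 62 at least 2-fold lower (0.594%). Genes at least 2-fold higher at both ages numbered 7, which is 9.59% of the 73 at 18 months and 23.3% of the 30 at 12 weeks, among them Cyp2d9, Mup21, Cyp4a12a, Nat8 and Ugt1a8, while 3 others (Cxcl13, Mup19 and Sult3a2) were at least 2-fold lower at 12 weeks. Genes at least 2-fold lower at both ages numbered 16, which is 10.0% of the 160 at 18 months and 25.8% of the 62 at 12 weeks, among them Ccnd1, Cyp3a44, Cyp17a1 and Sult2a1, while 3 others (Lepr, Saa1 and Saa2) were at least 2-fold higher at 12 weeks. Sult2a1 at 12 weeks had a mean of 0.0784 FPKM in CasM and 147 FPKM in ShamF. Col3a1 at 12 weeks was at 15.2 FPKM in CasM and 10.8 FPKM in ShamF, and Cyp7a1 at 32.7 FPKM in CasM and 34.9 FPKM in ShamF. The stellate cell list had a 12-week median of 0.01, the Kupffer cell list one of -0.70 and the cholesterol synthesis list one of -0.47. The difference between ages was not tested.

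In kidneys of the same age only the liver members were counted, so genes expressed in kidney alone are left out. Among the 10411 members with a kidney mean of at least 1, the authors' deposited table called 880 (8.45%). Of these, 376 were higher in CasM than in ShamF (3.61% of the 10411) and 504 lower (4.84%). Of the genes called higher in liver, 18 were also called higher in kidney, which is 28.1% of the 64 in liver and 4.79% of the 376 in kidney. They included Cyp4a12a, Cyp4a14, Fitm1, G0s2, Mogat1, Nat8, Mup14, Car3, Ces3a and Txnip. G0s2 had a kidney mean of 76.2 in CasM and 27.1 in ShamF, and Mogat1 one of 100 in CasM and 36.4 in ShamF. Lgals1 was called in the opposite direction, at 93.2 in CasM and 120 in ShamF in kidney. Of the genes called lower in liver, 7 were also called lower in kidney, which is 8.43% of the 83 in liver and 1.39% of the 504 in kidney, among them Cobl, Cyp39a1, Plau, Ptgfrn, Smoc2 and Sorl1. Col3a1, at 8.06 in CasM and 6.87 in ShamF in kidney, was not called there. Livers and kidneys may come from the same animals, which the labels do not state.

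**Figure D5:**
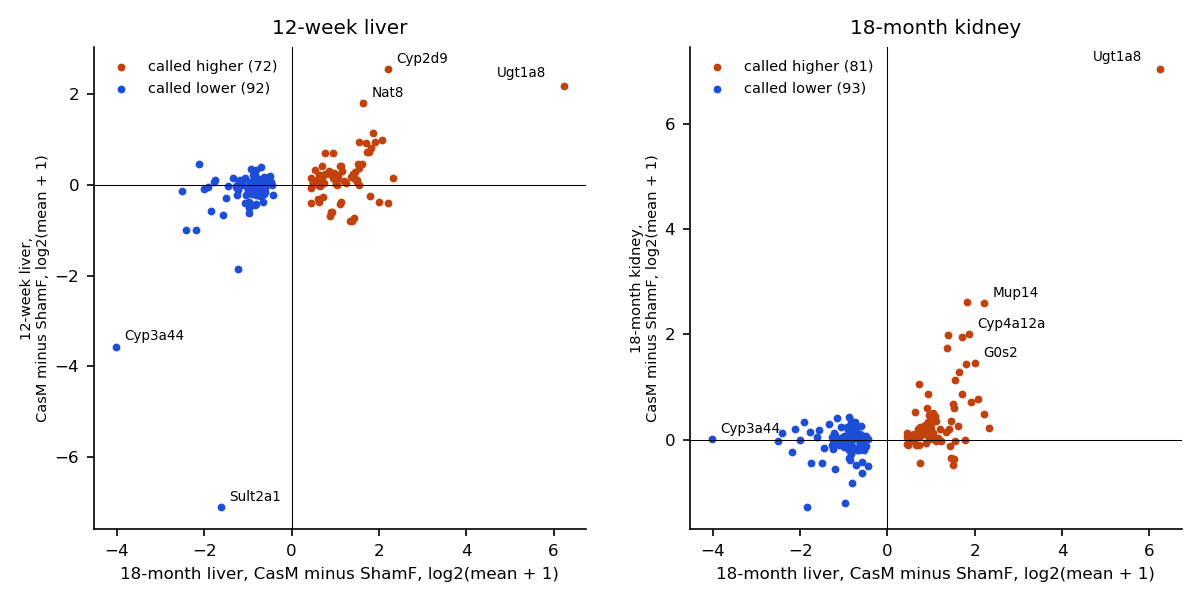
Difference between CasM and ShamF in log2(mean + 1) in 12-week liver (left, 72 genes called higher and 92 called lower at 18 months) and in 18-month kidney (right, 81 and 93) against the difference in 18-month liver. Most points lie near 0 on the vertical axis, with medians of 0.15 and -0.02 at 12 weeks, while Ugt1a8 and Cyp2d9 are higher and Cyp3a44 and Sult2a1 lower at both ages.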

How the data were processed

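Bulk RNA-seq of liver and kidney was deposited as group means. Per the submitters' processing notes, HISAT2, SAMtools, Cufflinks and the mm10 build were used, and neither their versions nor their roles are stated. The 18-month expression values are a normalized signal deposited by the authors as means over libraries, with no unit named, and the 12-week means are FPKM per the file headers. The deposited log2 fold, p-value and adjusted p-value come from the authors' DESeq2 test per the file headers, and the fold was turned to CasM over ShamF. With no values per library, no test of the means could be run, and no depth or binomial precision could be given. Python 3.11.15 with pandas 2.3.3, numpy 2.4.6, scipy 1.17.1 and matplotlib 3.10.9 was used, with a pseudocount of 1 and steps tested on simulated data. Chromosomes came from the RefSeq GRCm38.p6 table by gene ID.

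The members and lists were chosen with earlier results of these data known. Named genes were autosomal, called and with a mean of at least 5: the 12 largest and 12 smallest differences, then the 6 largest and 6 smallest with a mean of at least 100, plus list members, of which a few are not reported here. Alternatives were other thresholds, filters, pseudocounts and centring. The deposited metabolite means are a relative signal with no scale named by the authors, and give no spread.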

Additional observations from a re-analysis of the deposited data

How the results depend on the processing

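No paired analysis was possible because the columns hold group means only, and for the same reason leaving out a library, a replicate block and tests on counts (edgeR, DESeq2, TMM scaling) were planned but not run. With adjusted p under 0.01 the calls numbered 34 higher and 38 lower in CasM. With a mean of at least 5 in either group, 46 were called lower and 64 higher. Genes past 2-fold numbered 131 higher and 407 lower in CasM with a pseudocount of 0.1, and 28 higher and 57 lower with a pseudocount of 5. Adjusted p under 0.1, no filter on low values, all chromosomes, adjustment over the members only and a 2-fold limit left the call counts within 1.5 times. Direction was the same for all 31 named genes in the 4 alternatives run. Of 40 lists, 2 had a median of the other sign when centred on the members' median or taken from the authors' log2 fold: the CAR, PXR and AHR target list (-0.024, then 0.0037 and 0.05) and the pericentral hepatocyte list (-0.0043, then 0.02 and 0.05). By the authors' log2 fold, 53.9% of members lay above 0, against 45.8% by the means. Depth is unknown, so how it limits low genes cannot be said.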

Other observations

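Of 37 oxidative phosphorylation genes, 33 had a higher mean in CasM with a median of 0.22, none was called, and 8 were higher and none lower at an unadjusted p under 0.05 in the authors' deposited table. Over all members 45.8% had a higher mean and 54.2% a lower one, and 5.78% were higher at that limit. In either direction 1.60% of all members were called. Cox6c, a subunit of cytochrome c oxidase, was at 1163 in CasM and 718 in ShamF. Among 32 glutathione and NRF2 genes 1 was called higher, Gclc, the catalytic subunit of the enzyme that starts glutathione synthesis, at 104 in CasM, 61.4 in ShamF and 97.9 in ShamM. Of 29 acute phase genes 23 were lower in mean with a median of -0.20, and 1 was called lower, the interleukin-6 receptor gene Il6ra, at 9.91 in CasM, 20.2 in ShamF and 8.89 in ShamM. Gdf15, a stress-induced hormone, was the single called gene of 19 in the senescence and p53 list, at 15.2 in CasM, 5.38 in ShamF and 6.31 in ShamM. Hjv, the hemojuvelin gene of iron sensing, was the single called gene of 23 for metallothioneins and iron, at 62.2 in CasM and 44.0 in ShamF. Cfd, an adipocyte protease of complement, was called higher at 3.59 in CasM, 0.0900 in ShamF and 24.1 in ShamM. It reached a mean of 1 in CasM only, so its direction followed from the expression rule. Other adipose markers were not called, and of the 4 that passed the rule 2 had a higher mean and 2 a lower one. All 6 erythroid markers had a higher mean in CasM with a median of 0.65, and 7 of 8 B and plasma cell markers did so with a median of 0.60, none of them called. A mean of 1 was reached in CasM only by 1 of the erythroid and 3 of the B and plasma cell markers.

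Outside the autosomes, 6 of 323 expressed X-linked genes were called, beside 1.60% of the autosomal members. Bgn, biglycan, a matrix proteoglycan, was at 42.0 in CasM, 115 in ShamF and 38.7 in ShamM. Ddx3x and Kdm6a, which are known to escape X inactivation, were also lower, with means of 34.0 and 2.18 in CasM and 66.1 and 3.84 in ShamF. Capn6 and Tlr8 were lower too, but both reached a mean of 1 in ShamF only, so their direction followed from the expression rule. Alas2, the erythroid enzyme that starts haem synthesis, was higher at 20.8 in CasM, 7.78 in ShamF and 70.1 in ShamM.

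Relative metabolite levels of 18-month liver were available as group means with no spread, so no comparison with error can be made. The header of the CasM column carries a number that the sham headers lack, and its meaning is not stated. Whether the animals are those of the libraries is therefore unknown. Of 954 compounds, 63 were at least 2-fold higher in CasM than in ShamF and 33 at least 2-fold lower. The median log2 ratio was -0.03, with quartiles of -0.32 and 0.30. Taurocholic acid, a main conjugated bile acid, was at 41.5 in CasM, 36.6 in ShamF and 25.9 in ShamM, and tauro-b-muricholic acid, a bile acid typical of mice, at 0.864 in CasM, 0.256 in ShamF and 0.547 in ShamM. Bile acids did not move as one. Deoxycholic acid was also higher, at 0.0669 in CasM and 0.0348 in ShamF. Taurodeoxycholic acid (21.0 in CasM, 22.1 in ShamF) and cholic acid (0.560 and 0.695) were lower. Chenodeoxycholic acid (1.48 and 1.72) and ursodeoxycholic acid (0.152 and 0.166) were lower too. Cholesterol sulfate was at 6.53 in CasM, 10.4 in ShamF and 3.93 in ShamM. Octanoylcarnitine, a medium-chain acylcarnitine, was at 0.0161 in CasM, 0.0372 in ShamF and 0.0288 in ShamM. Butyrylcarnitine (0.207 in CasM, 0.469 in ShamF) and 2-methylbutyroylcarnitine (0.167 and 0.487) were also lower. Acetylcarnitine (0.665 and 0.827) and palmitoylcarnitine (0.210 and 0.261) were lower too. Among the acylcarnitines given here propionylcarnitine alone was higher, at 0.208 in CasM, 0.0654 in ShamF and 0.228 in ShamM.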
